A study of Canis lupus familiaris with 62 samples.

Results

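Tumours of dogs treated by surgery alone were compared with tumours of dogs that received no treatment, over the whole transcriptome. Members were chosen by the treatment label, read as surgery for Sx, which gave 13 Sx dogs and 27 untreated dogs, or 40 of the 62 libraries in the series. Of the 13 Sx dogs, 6 carry the label Sx alone and 7 carry it with the addition that the dog was lost to follow-up. Dogs given radiotherapy, steroids or antiepileptic drugs were left out of the comparison. Among these, the 7 dogs grouped under steroids comprise 6 labelled with both a steroid and an antiepileptic drug and 1 labelled with a steroid alone. Titles of 12 of the 13 Sx dogs begin with S, and Sx replicate 1 is the exception with N. Titles of all 27 untreated dogs begin with N. The labels explain neither the letter nor the number that follows it, so treatment and title letter cannot be told apart in these dogs.

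The series measured RNA from spontaneous canine meningiomas, with 1 library per dog, from fixed and paraffin-embedded sections. The Sx group held 5 females and 8 males of 9 breeds, and 2 of the 13 were intact. The untreated group held 14 females and 13 males of 17 breeds, and 3 of the 27 were intact. Per the labels' protocols, specimens came either from surgery or from necropsy soon after death, and no label says which route a given dog's tissue took. Survival, for which the labels give no unit, ran from 5 to 847 with a median of 80 in Sx dogs. For the 7 Sx dogs lost to follow-up (14 to 561, median 80) the value cannot be read as time to death. The other 6 ran from 5 to 847 with a median of 86.5. In untreated dogs survival ran from 0 to 4 and was 0 in 16 of 27. Treatment, survival and any difference in how the tissue was taken therefore cannot be told apart. Age is not used here.

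Meningiomas arise from the meninges, the membranes that cover the brain and spinal cord, and are the most common primary brain tumours of dogs. A section of such a tumour can hold tumour cells, vessels, immune cells and adjoining brain. In bulk RNA, fewer cells of a type and less RNA per cell cannot be told apart. RNA in fixed tissue is broken and chemically modified, and the loss varies with handling before and after fixation. Ensembl identifiers were not paired with gene names in the files used here, so genes are given by identifier and position on CanFam3.1, and cell types were not measured.

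The 40 libraries held between 1967061 and 8641108 counts (median 4064974). A count above 0 was found for 13085 to 18767 genes. Both reads of a pair were counted, and even numbers made up 62.4% to 88.9% of all counts above 0 in a library. A count of 2 thus mostly stands for 1 sequenced fragment. Mean totals were 5040376 ± 2031095 in Sx (SD, n = 13) and 3951210 ± 1216060 in untreated dogs (SD, n = 27), a difference that did not pass the test (permutation adjusted p = 0.0852).

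Sx and untreated tumours differed in 1324 of 14126 genes tested, or 9.37% of them (edgeR quasi-likelihood test with sex and neuter status as covariates, Benjamini-Hochberg adjusted p under 0.05). Of these, 559 genes (3.96%) were higher in Sx and 765 genes (5.42%) were lower. The balance of the 2 directions depended on the tool and on a few libraries. limma voom called 332 genes higher and 166 lower, and without 5 untreated libraries that lay past a gap on the first principal component edgeR called 204 higher and 90 lower. In the fit of all 40 libraries, differences toward lower levels were larger. The median log2 fold change was 0.73 among the genes called higher and -2.08 among those called lower, against 0.01 over all genes tested. At an unadjusted p under 0.05, 3427 genes passed.

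More than 4-fold differences were found in 42 of the 559 genes called higher and in 398 of the 765 called lower. Over all 14126 genes tested there were 567 in either direction. Past 8-fold there were 11 and 193 genes, against 212 over all genes tested. Genes called higher were the more abundant ones, with a median level of 5.55 on the scale of log2 CPM (counts scaled to a library total, then logged), while those called lower had a median of 3.66 and all genes tested 4.26. Split into 4 equal groups by level, the lowest group of the genes tested had 43 called higher and 241 lower. The highest group had 247 called higher and 160 lower, with median log2 fold changes of 0.63 and -0.75. The same log2 fold is harder to call in a gene with few counts, so the sizes of called genes at low levels are bounded from below by the test. Genes with low counts were filtered out before the test, and a gene could pass on dogs of a single group. Untreated dogs were the larger group, so genes low in Sx could enter more easily than genes low in untreated dogs. How many calls rest on this was not tested.

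**Figure D1:**
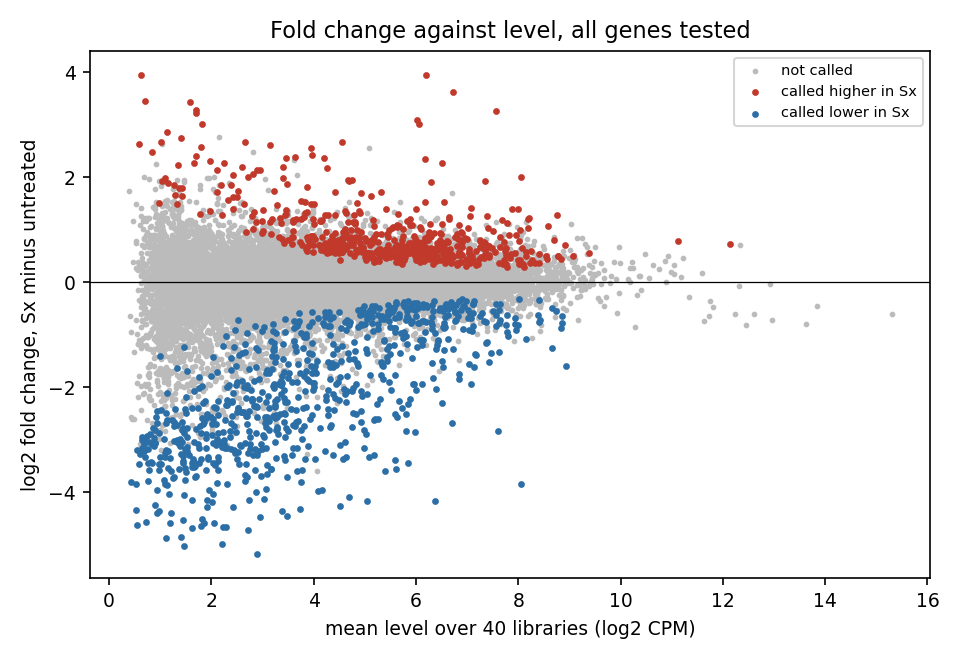
Log2 fold change of Sx against untreated dogs (vertical axis) against mean level over the 40 libraries in log2 CPM (horizontal axis), with 1 point per gene for 14126 genes. Red points are the 559 genes called higher in Sx and blue points the 765 called lower, and the blue points reach larger sizes, above all at low levels.

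The 2 groups overlapped in every gene, since for 0 of the 14126 genes did all 13 Sx dogs lie on 1 side of all 27 untreated dogs. All 13 Sx dogs lay above the untreated median in 73 of the genes called higher, and below it in 109 of those called lower. They lay on 1 side of it in 271 of all 14126 genes tested, and in 89 of the 12802 not called. Untreated dogs were the more variable group. The median SD over all genes tested was 0.701 log2 units in Sx and 0.849 in untreated dogs. For genes called lower the median SDs were 1.11 and 1.64, and for genes called higher 0.594 and 0.620. In the genes called lower, a median of 9 of 27 untreated dogs exceeded the highest Sx dog, against 1 over all genes tested. At least 5 such dogs were found in 727 of the 765 genes, and in 2853 of all 14126. In the genes called higher, a median of 4 of 13 Sx dogs exceeded the highest untreated dog, against 0 over all genes tested. The genes were called on these same levels, so such gaps follow in part from the choice. Genes called lower had a wide spread among untreated tumours and were low in most Sx tumours.

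A pair of genes in each direction was named by the size of the difference between group medians, among called genes with a mean level of at least 1 log2 CPM. Levels are given in log2 CPM with a prior count of 2, on which a count of 0 takes the value -1.16. None of the 4 genes overlaps another gene of the annotation.

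ENSCAFG00000004443 lies on the minus strand at chr1:110087036-110092818 and has 4 exon blocks with 2667 bases in all. In Sx replicates 1 to 13 its levels were 3.69, 7.55, 10.95, 4.63, 8.58, 7.41, 8.62, 9.98, 9.75, 7.83, 10.68, 11.39 and 10.78. In untreated dogs they ran from 2.91 to 8.17 with a median of 4.55. The N-titled Sx replicate 1 was the lowest Sx dog, and 8 of 13 Sx dogs lay above every untreated dog. Group means were 8.60 ± 2.39 (SD, n = 13) and 5.05 ± 1.39 (SD, n = 27), and the log2 fold change was 3.95 with an SE of 0.52 (edgeR adjusted p = 8.71e-06). Raw counts ran from 68 to 13204 in Sx and from 32 to 1064 in untreated dogs.

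ENSCAFG00000028513 lies on the minus strand at chr9:24809739-24836058, with 6 exon blocks and 2698 bases. Its levels in Sx replicates 1 to 13 were 4.05, 5.05, -1.16, 4.53, 6.47, 5.94, 5.44, 6.76, 6.02, 4.55, 5.96, 6.39 and 0.47. Untreated dogs ran from -1.16 to 5.69 with a median of 1.43. Sx replicates 3 and 13 fell within the low part of the untreated range, and the other 11 lay above the untreated median. Means were 4.65 ± 2.39 (SD, n = 13) and 2.12 ± 2.03 (SD, n = 27), with a log2 fold change of 2.13 and an SE of 0.66 (edgeR adjusted p = 0.0347). This call was the least stable of the 4. It was lost in 19 of 63 alternative fits, among them those without Sx replicate 5, 6, 8 or 12 or without untreated replicate 1, where the edgeR adjusted p ran from 0.0523 to 0.0777.

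ENSCAFG00000012177 lies on the plus strand at chr35:26256489-26266832, with 10 exon blocks and 1041 bases. Its levels in Sx replicates 1 to 13 were 4.12, 0.90, -0.10, -1.16, -1.16, 1.31, -0.73, -0.43, -1.16, -1.16, -1.16, -0.22 and -1.16. Untreated dogs ran from -1.16 to 8.38 with a median of 4.56. The N-titled dog stood at 4.12 and no other Sx dog exceeded 1.31. No count was found in 6 of 13 Sx libraries and in 4 of 27 untreated libraries. Sx replicate 1 had 92 counts and no other Sx library more than 6, so the gene passed the filter on low counts through untreated dogs. Means were -0.16 ± 1.53 (SD, n = 13) and 3.36 ± 2.91 (SD, n = 27), with a log2 fold change of -4.98 and an SE of 1.05 (edgeR adjusted p = 0.00470). Without Sx replicate 1 the log2 fold change was -6.66.

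ENSCAFG00000031120 lies on the minus strand at chr36:3358125-3363129, with 3 exon blocks and 1017 bases. It had no count in 10 of 13 Sx libraries. Sx replicate 1 stood at 3.65, replicate 9 at 0.66 and replicate 12 at 0.35. Untreated dogs ran from -1.16 to 6.82 with a median of 4.03, and 3 of 27 had no count. All 13 Sx dogs lay below the untreated median, and 14 untreated dogs lay above the highest Sx dog. The log2 fold change was -4.51 with an SE of 1.04 (edgeR adjusted p = 0.00737), and -6.85 without Sx replicate 1. That replicate had 66 counts and no other Sx library more than 4, so this gene too passed the filter through untreated dogs. Both genes called lower were picked by the gap of medians in these same values, so their separation is no further support. Neither passed the filter when untreated dogs were limited to those with survival 0.

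**Figure D2:**
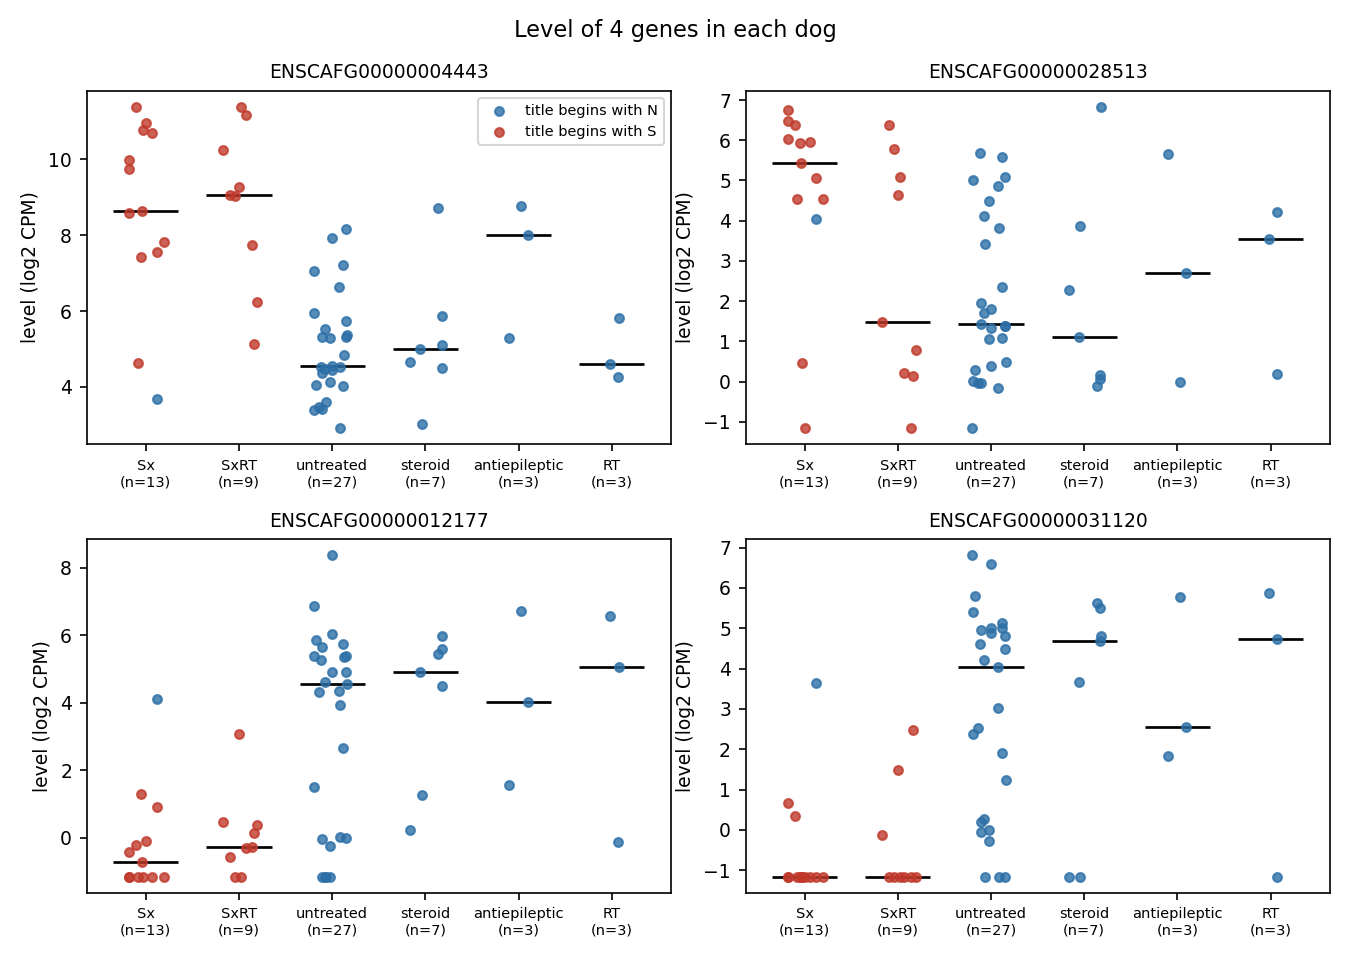
Level in log2 CPM (vertical axis) of the 4 named genes in each of the 62 dogs by treatment group (horizontal axis), with 1 point per dog, black lines at group medians and colours for the first letter of the title. In the upper left panel 8 Sx dogs lie above every untreated dog, and in the lower panels the single N-titled Sx dog (blue) lies at 4.12 and 3.65, above the other Sx dogs.

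Dogs outside the comparison were set beside these values. ENSCAFG00000004443 had a mean of 8.80 ± 2.11 (SD, n = 9) in dogs given surgery and radiotherapy (SxRT), all of which have S titles. It stood at 5.27 ± 1.75 (SD, n = 7) in the steroid group, of which 6 also received antiepileptic drugs, 7.35 ± 1.83 (SD, n = 3) with antiepileptic drugs alone and 4.89 ± 0.82 (SD, n = 3) with radiotherapy alone (RT), all with N titles. ENSCAFG00000012177 had a mean of 0.06 in SxRT, 3.99 with steroids, 4.10 with antiepileptic drugs and 3.83 with RT. ENSCAFG00000031120 stood at -0.35 in SxRT and between 3.14 and 3.40 in those 3 groups. ENSCAFG00000028513 had a mean of 2.59 ± 2.85 (SD, n = 9) in SxRT, and these dogs were split. SxRT replicates 4, 5, 8 and 9 stood at 5.78, 4.63, 5.08 and 6.37, and the others at 1.47 or below. The SxRT median was 1.47, against 1.43 in untreated and 5.44 in Sx dogs. Its means were 2.03 with steroids, 2.79 with antiepileptic drugs and 2.66 with RT. For the other 3 genes, the SxRT means were nearest to those of Sx.

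Each dog was then placed by the genes called without it. For each of the 40 libraries the main comparison was refitted with that library left out, and the share of the genes so called was taken in which the library lay closer to the Sx median than to the untreated median. The 12 S-titled Sx dogs had shares from 59.9% to 81.3% with a median of 72.9%. The N-titled Sx dog had 12.2%. Untreated dogs had shares from 5.05% to 64.7% with a median of 32.7%, and 6 of 27 exceeded 50%. Sx replicate 1 thus lay with the lower untreated dogs on genes that it had no part in choosing. It is 1 dog, so whether treatment or title letter goes with the levels cannot be told apart from it.

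The same share over the genes of the full comparison had a median of 73.8% in SxRT dogs, with 8 of 9 above 50%. It had a median of 10.6% in steroid dogs, with 1 of 7 above 50%, and 0 of 3 antiepileptic and 0 of 3 RT dogs exceeded 50%. In all, 20 of the 21 S-titled dogs and 7 of the 41 N-titled dogs lay above 50%.

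**Figure D3:**
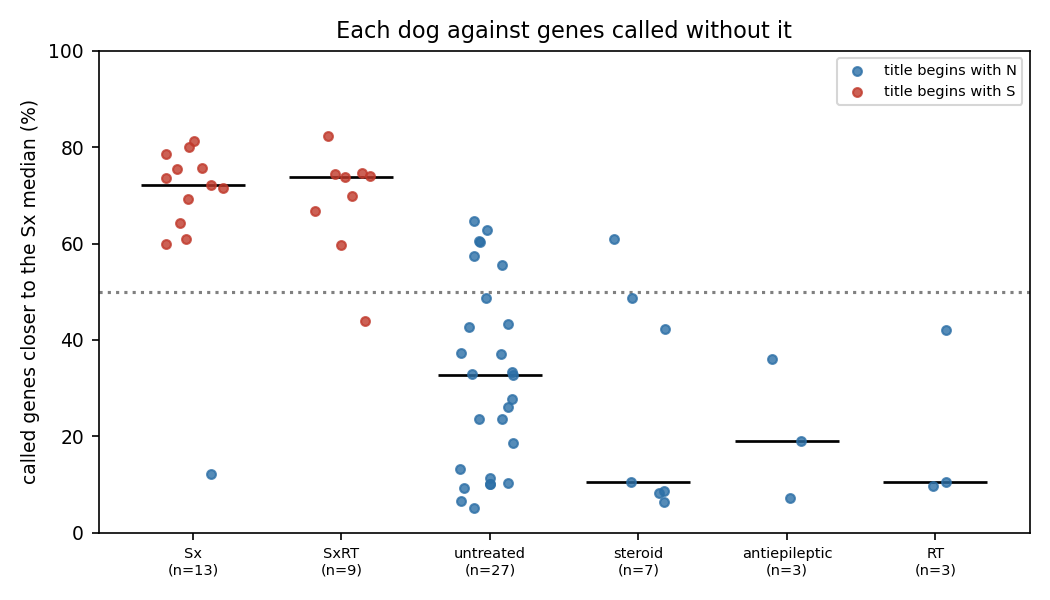
Share of called genes, in percent, in which a dog lay closer to the Sx median than to the untreated median (vertical axis), by treatment group (horizontal axis), with 1 point per dog, black lines at group medians and a dotted line at 50%. The N-titled Sx dog lies at 12.2%, below the other 12 Sx dogs at 59.9% to 81.3%.

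Genes of the comparison were also read in dogs that took no part in it. SxRT dogs (9) were tested against dogs given steroids, antiepileptic drugs or both (10), with no dog shared. This contrast also sets S titles against N titles. It called 1235 of 13575 genes (9.10%), 448 higher (3.30%) and 787 lower (5.80%) in SxRT (edgeR adjusted p under 0.05). Of 1243 genes called between Sx and untreated dogs and tested here, 1190 (95.7%) had the same sign, against 72.3% of all 13438 genes tested in both. The genes called higher in Sx had a median log2 fold change of 0.55 here, with 511 of 550 positive, and those called lower had -2.12, with 679 of 693 negative. Both comparisons called 480 genes, all with the same sign, which is 36.3% of the calls between Sx and untreated dogs and 38.9% of the calls here. ENSCAFG00000012177 (-4.67, edgeR adjusted p = 0.0141) and ENSCAFG00000031120 (-4.76, edgeR adjusted p = 0.0260) were called, while ENSCAFG00000004443 (3.00, edgeR adjusted p = 0.0655) and ENSCAFG00000028513 (0.50, edgeR adjusted p = 0.788) were not. Leaving out single SxRT dogs moved the count of calls to between 759 and 1317, with the lowest counts of 759, 768, 803 and 809 without replicates 5, 9, 1 and 3.

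Titles with numbers from 11 to 16 hold 7 Sx and 18 untreated dogs, and those from 17 to 22 hold 6 and 9. Untreated numbers end at 18 while Sx numbers reach 22, and most Sx dogs of the upper range lie above every untreated dog. In that range treatment and title number can hardly be told apart. This also bears on the interaction with number range and on the fit with the title number as a covariate. The lower range gave 478 called genes, 113 higher and 365 lower, and the upper range gave 2, with 1515 genes at an unadjusted p under 0.05 (edgeR). The 2 ranges share no dog. Of 452 genes called in the lower range and tested in the upper one, 422 had the same sign, against 64.9% of all 13685 genes tested in both. Across genes, which are not independent replicates, the log2 fold changes of the ranges had a Pearson r of 0.546. The interaction of treatment with number range passed in 0 of 14126 genes by edgeR (682 at an unadjusted p under 0.05) and in 4 by DESeq2.

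The named genes kept their direction in both ranges. They were picked over the dogs of both ranges together, so this follows in large part from the choice. In the numbers 11 to 16 the log2 fold changes were 3.51 for ENSCAFG00000004443, 1.90 for ENSCAFG00000028513, -6.41 for ENSCAFG00000012177 and -10.2 for ENSCAFG00000031120. All 7 Sx libraries of that range were at 0 counts for ENSCAFG00000031120, so that its fitted value is no measure of size. In the numbers 17 to 22 they were 4.23, 3.27, -3.80 and -2.55, and none was called. Sx replicate 1 belongs to the upper range.

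Library measures differed between the groups as well. Of 11 measures tested, 4 passed (2-sided permutation test, 100000 resamples, adjusted over the 11). The share of even values among counts of 1 to 20 was 86.9% ± 3.55 in Sx (SD, n = 13) and 91.2% ± 2.71 in untreated dogs (SD, n = 27), lower than the untreated median in 12 of 13 Sx dogs (permutation adjusted p = 0.00258). The summed exon length per gene was averaged with weights by counts outside the mitochondrial chromosome. It was 4229 ± 94.2 bases in Sx (SD, n = 13) and 4118 ± 105 bases in untreated dogs (SD, n = 27). In 12 of 13 Sx dogs it was above the untreated median (permutation adjusted p = 0.0100). Of counts outside the mitochondrial chromosome, the share on X was 2.71% ± 0.32 in Sx (SD, n = 13) and 2.94% ± 0.26 in untreated dogs (SD, n = 27). Its permutation adjusted p was 0.0466, and 0.0607 without Sx replicate 1. The tests of library measures held no covariates, so the unlike balance of the sexes was not adjusted for.

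The first principal component, which held 24.4% of the variance over 11900 genes, had a mean of -39.9 ± 27.2 in Sx (SD, n = 13) and 19.2 ± 50.9 in untreated dogs (SD, n = 27). Its permutation adjusted p was 0.00258. The 12 S-titled Sx dogs lay between -62.2 and -23.4 and the N-titled one at 40.6, inside an untreated range of -52.5 to 135. Within the numbers 11 to 16, 3 of the 4 measures passed again (exact permutation test). They were the even share, the summed exon length and the first component. Within 17 to 22 none passed.

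The mitochondrial chromosome encodes subunits of the respiratory chain with the transfer and ribosomal RNAs needed to make them. Its genes held 9.83% ± 3.90 of counts in Sx (SD, n = 13) and 14.4% ± 7.91 in untreated dogs (SD, n = 27), which did not pass (permutation p = 0.0495, adjusted p = 0.0908). Of its 37 genes, 16 passed the filter on low counts, and the median log2 fold change of these was -0.61. Of those, 1 was called lower (6.25%) and 0 higher, against 5.42% and 3.96% of all genes tested. The mitochondrial share ran from 3.00% to 16.3% in Sx, with the highest value in Sx replicate 1, and from 6.29% to 46.5% in untreated dogs.

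**Figure D4:**
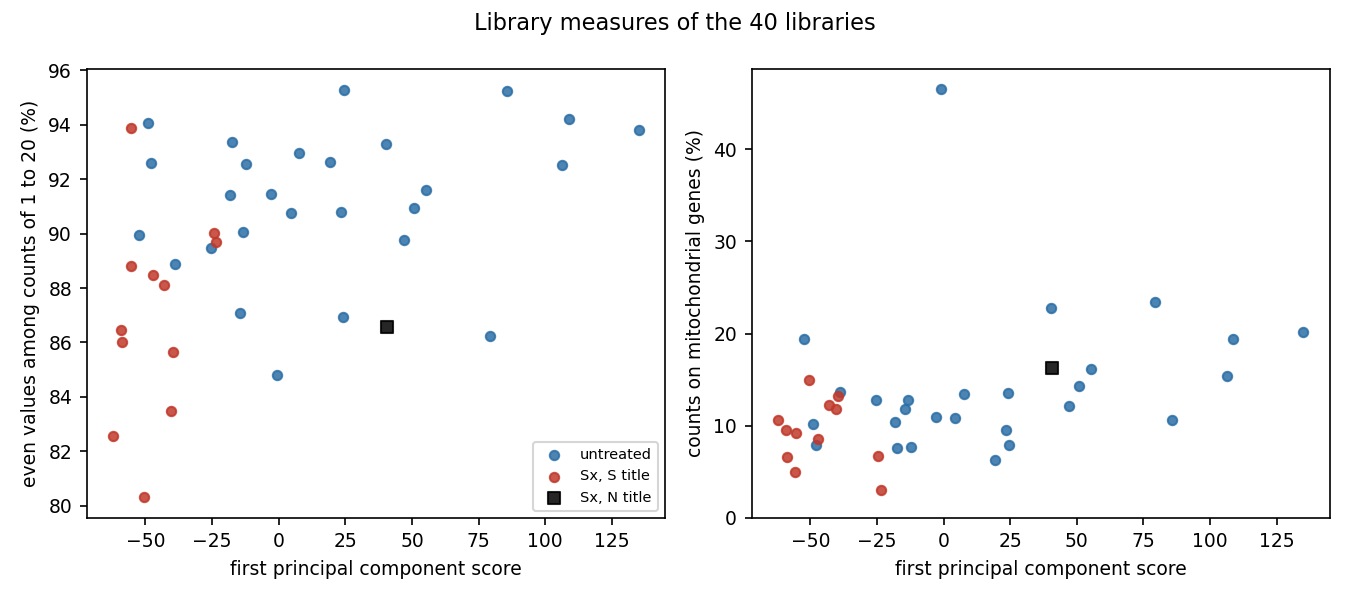
Share of even values among counts of 1 to 20 (left, percent) and share of counts on mitochondrial genes (right, percent) against the score on the first principal component, with 1 point per library for 27 untreated and 13 Sx dogs. The 12 S-titled Sx dogs (red) lie below -23 on the component, and the N-titled Sx dog (black square) lies at 40.6 among untreated dogs.

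Some library measures were held as covariates in further fits, chosen after the data were seen. The even share and the first component had passed the test between groups, and the mitochondrial share had not. The summed exon length and the X share, which had passed, were not fitted. With the even share added, 128 genes were called (82 higher, 46 lower). With the mitochondrial share added, 432 were called. With the first component added, 25 were called, and 1208 of the 1324 genes kept their sign. Without the 5 untreated libraries that lay past a gap on that component, 294 were called, 204 higher and 90 lower (edgeR in each case). A covariate that differs between groups also takes up part of a difference due to the groups, so these counts do not separate the 2. ENSCAFG00000004443 was called in each of these 4 fits, and ENSCAFG00000028513 in none of them. ENSCAFG00000012177 lost its call with the even share (-4.38, edgeR adjusted p = 0.0530) and with the first component (-2.55, edgeR adjusted p = 0.195). ENSCAFG00000031120 lost it with the even share (-3.60, edgeR adjusted p = 0.106), with the first component (-2.38, edgeR adjusted p = 0.201) and without the 5 libraries (-3.60, edgeR adjusted p = 0.0593).

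Genes were grouped by structure from the coordinates in the deposited file. Of 1884 multi-exon genes with under 1000 bases of exon, 15 were called higher (0.796%) and 68 lower (3.61%). Of 2422 with over 4000 bases, 181 were called higher (7.47%) and 154 lower (6.36%), against 3.96% and 5.42% of all genes. Of 2521 genes that span over 100000 bases, 74 were called higher (2.94%) and 273 lower (10.8%). Across the 4 bins of summed exon length from shortest to longest, the share called higher was 0.796%, 3.06%, 4.38% and 7.47%. The share called lower was 3.61%, 5.01%, 6.29% and 6.36%. The differences between these classes were not tested. On X, 8 of 506 genes were called higher (1.58%) and 41 lower (8.10%). Genes with a longer summed exon length also had higher levels, with a median of 5.91 log2 CPM in the longest bin and 3.09 in the shortest. Level goes with how readily a difference is called.

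Meningiomas often gain or lose whole chromosomes or arms, and the mean expression of a chromosome's genes can shift with copy number. A score was computed for each of 39 chromosomes as the mean deviation of its genes from their 40-library means, after subtracting the median of that library's autosomes. Scores of 2 chromosomes passed a permutation test of the difference of means, run without covariates. That test takes the spread of the groups as equal. On both chromosomes the smaller Sx group had the larger SD, which can make its p too small. Chromosome 11 (347 genes) scored 0.128 ± 0.201 in Sx (SD, n = 13) and -0.067 ± 0.123 in untreated dogs (SD, n = 27), above the untreated median in 11 of 13 Sx dogs (permutation adjusted p = 0.0160). Chromosome 24 (312 genes) scored 0.101 ± 0.184 and -0.053 ± 0.088, also above in 11 of 13 (permutation adjusted p = 0.0160). Copy number itself was not measured.

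The shift on chromosome 11 was uneven among Sx dogs. Replicates 3, 8, 10, 11 and 13 had scores of 0.323, 0.422, 0.435, 0.242 and 0.389, above the highest untreated score of 0.234, while the other 8 lay between -0.079 and 0.062. On chromosome 24, replicates 12 and 3 stood at 0.514 and 0.389, and the highest untreated dog at 0.247. The N-titled Sx dog scored -0.012 on chromosome 11 and 0.020 on chromosome 24. Along chromosome 11 the mean difference was 0.271 over 88 genes between 50 and 60 Mb and 0.050 over 24 genes between 30 and 40 Mb. Along chromosome 24 it was 0.419 over 52 genes between 40 and 50 Mb, where all 13 Sx dogs lay above the untreated median and 13 genes were called higher and 1 lower. That is the bin with the largest difference of those on the chromosome, and over all genes 3.96% were called higher and 5.42% lower. The difference was -0.046 and -0.020 in the first and second bins of 10 Mb.

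**Figure D5:**
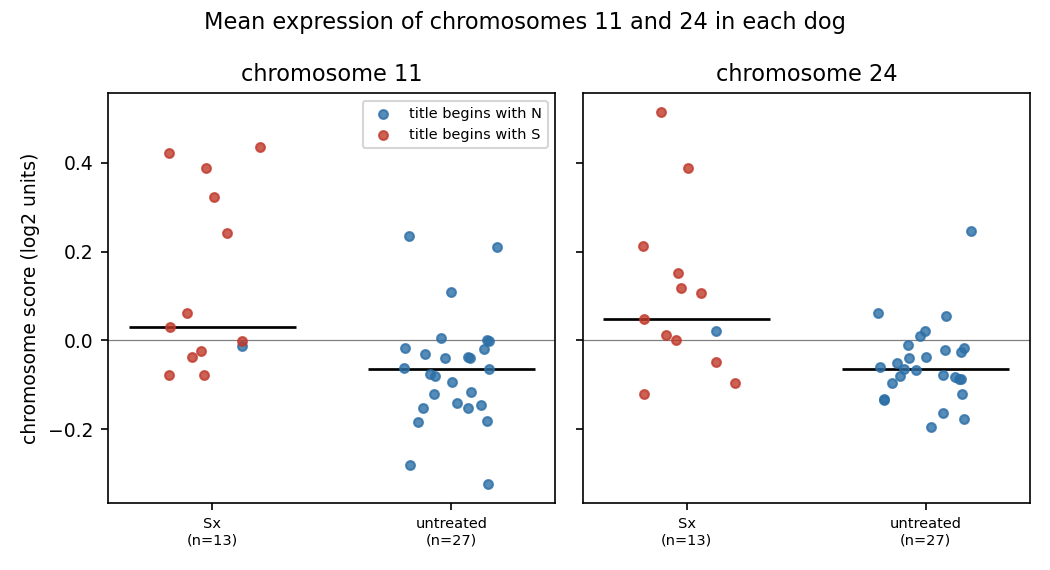
Score of chromosome 11 (left) and chromosome 24 (right) in log2 units (vertical axis) for 13 Sx and 27 untreated dogs, with 1 point per dog, black lines at group medians and colours for the first letter of the title. On chromosome 11, 5 Sx dogs lie above the highest untreated score of 0.234 and the other 8 lie among the untreated dogs.

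Within the numbers 11 to 16 the differences were 0.139 for chromosome 11 (exact permutation adjusted p = 0.236) and 0.174 for chromosome 24 (exact permutation adjusted p = 0.0559). Within 17 to 22 they were 0.275 (exact permutation adjusted p = 0.0195) and 0.120 (exact permutation adjusted p = 0.340). Chromosomes 15 (-0.221, exact permutation adjusted p = 0.0156) and 23 (0.213, exact permutation adjusted p = 0.0260) also passed within 17 to 22, with differences of the opposite sign, 0.081 and -0.061, within 11 to 16. With genes of a mean level of at least 4 only, chromosome 21 passed beside 11 and 24 (-0.150, permutation adjusted p = 0.0286). Without Sx replicate 1, chromosomes 9, 21 and 29 passed beside 11 and 24, each of the 3 with a permutation adjusted p of 0.0492. Sx dogs were higher on chromosome 9 (0.114 against -0.054) and lower on chromosomes 21 (-0.090 against 0.035) and 29 (-0.147 against 0.053).

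Inside the Sx group, the 7 dogs lost to follow-up were set against the 6 labelled Sx alone. Of 13250 genes tested, edgeR called 0, with 408 at an unadjusted p under 0.05, and DESeq2 called 8. Against the same untreated dogs, the 7 dogs lost to follow-up gave 661 called genes, 216 higher and 445 lower. The 6 labelled Sx alone gave 31, all higher, and these 6 include the N-titled dog. Without it the remaining 5 gave 100, 83 higher and 17 lower (edgeR).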

How the data were processed

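The authors deposited 1 table of raw counts per gene for 62 libraries of total RNA. Per the file headers, featureCounts 2.0.4 counted reads on exons from Ensembl release 100 (CanFam3.1), primary alignments only, without strand and without the option that counts fragments. STAR and DESeq2 are named in the submitters' processing notes, with versions not given in the sources used here. The table's 30951 identifiers matched 0 names in the table at hand, so planned gene lists and cell type markers were not analysed here.

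Members, lists and tests were chosen with earlier results of these data known. Replicates are separate dogs, numbered in accession order, and pair nothing. No libraries were duplicates (the closest of 1891 pairs had a chi-square per gene of 11.8). Genes were filtered with filterByExpr, scaled by TMM (factors 0.623 to 1.14) and fitted with edgeR 4.0.16 in R 4.3.3 (common dispersion 0.45), with sex and neuter status as covariates. Alternatives used DESeq2 1.42.0 and limma 3.58.1 voom. Levels are log2 CPM over all 62 libraries. Chromosome scores used 11829 genes with a mean of at least 2. Named genes had an adjusted p under 0.05, a mean level of at least 1 and a fold change with the sign of the difference of medians. They were ranked by that difference, and without names the first 2 per direction were taken. Permutation tests used 100000 resamples, or all where a group had under 10 dogs. Python 3.11.15 with scipy 1.17.1 was used. The scripts were tested on simulated data. Simulated counts were drawn independently for each gene, without the differences that the real libraries share across genes. Recovery and false calls there need not hold in these data. In simulated counts for Sx against untreated dogs (13800 genes), edgeR recovered 31 of 66 genes changed by 1 log2 unit, 57 of 65 changed by 2 and 62 of 63 changed by 3, with 5 false calls. The covariate fits, the sets without 5 libraries or without the N-titled dog, the shares by left-out library, the bins and the comparison inside Sx were added after the data were seen.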

Additional observations from a re-analysis of the deposited data

Results flagged for a closer look

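Levels of the named genes, and the shares of called genes closer to the Sx median, were checked in 18 sets of 4 to 10 dogs for 1 dog far from the others, which chance gives in about 1 of 20 sets. ENSCAFG00000012177 stood at 3.08 log2 CPM in 1 SxRT dog, far above the other 8. ENSCAFG00000031120 stood at 3.65 in 1 of the 6 dogs labelled Sx alone, which is the N-titled replicate 1. The same gene stood at 0.66 in Sx replicate 9, which is 4 counts, against 0 counts in the other dogs lost to follow-up. With the others all at 0 counts, the rate of 1 in 20 does not apply to this set.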

How the results depend on the processing

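The 4 named genes, the 4 library measures that passed and both chromosome scores that passed kept their direction in every alternative run. Each was picked from its values in these same dogs, so this follows in large part from the choice. The number of genes with a count, which did not pass, differed by 508 over all dogs and by -29.8 in titles 17 to 22. With the first component as a covariate, 1208 of the 1324 called genes kept their sign. Against 1324 genes called between Sx and untreated dogs, limma voom called 498 (332 higher, 166 lower) and no filter 2038. With the title number as a covariate 875 were called. Titles 11 to 16 gave 478 and titles 17 to 22 gave 2. Dogs labelled Sx alone gave 31, Sx dogs lost to follow-up gave 661 and untreated dogs with survival 0 gave 264. Chosen after seeing the data, the even share as a covariate gave 128, the mitochondrial share 432, the first component 25 and leaving out 5 libraries 294. The fit of dogs labelled Sx alone without the N-titled dog, also chosen then, gave 100. DESeq2 called 1978. Leaving out 1 dog gave 830 to 1810, with 830 without Sx replicate 12, 873 without Sx replicate 13 and 1810 without Sx replicate 1. The interaction with title number called 4 by DESeq2 against 0. SxRT against drugs called 2334 by DESeq2 against 1235, and 759 to 1317 without single dogs. Of 11 library measures, 0 passed in titles 17 to 22 and 3 without Sx replicate 1, against 4. Of 39 chromosome scores, 0 passed in titles 11 to 16 and 5 without Sx replicate 1, against 2. ENSCAFG00000004443 lost its call in 1 of 63 alternatives, ENSCAFG00000028513 in 19 of 63, ENSCAFG00000012177 in 6 of 62 and ENSCAFG00000031120 in 6 of 61. Subsets hold fewer dogs; otherwise the cause was not tested. No paired analysis was possible because the replicate numbers follow accession order and pair no dogs. Totals of 1967061 to 8641108 counts limit what can be said of low genes.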
